A study of Mus musculus and Ictidomys tridecemlineatus with 36 samples.

Results

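Otx2 peaks that overlap no peak of H3K4me3, H3K27ac, or H3K4me1 were examined in the developing retina of the 13-lined ground squirrel (13LGS) and the mouse. An Otx2 peak was kept when it shared not even 1 bp with a peak of any of the 3 histone marks in the same species, and in 13LGS only peaks on sequences Itri1 to Itri19 were kept. By this rule, 1762 of 27792 Otx2 peaks (6.34%, 95% Wilson interval 6.06 to 6.63) were outside all histone peaks in 13LGS, as were 2096 of 29115 (7.2%, 6.91 to 7.50) in mouse. The members were thus selected on measured peak calls, so their Otx2 fold, their distance to histone peaks, and their share near promoters are given as a description. The share depended on the calling threshold and was 3.43% in 13LGS and 4.52% in mouse when only Otx2 peaks with a −log10 q of 5 or more were counted.

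CUT&RUN, in which an antibody directs a nuclease to cut DNA around a bound protein or histone mark, was carried out on whole retina of P5 13LGS and P2 mouse, stages rich in late-stage RPCs (retinal progenitor cells) and photoreceptor precursors. The 36 libraries fell into 12 conditions. In 13LGS there were 6 Otx2 libraries (4 with the R&D Systems antibody and 2 with the Atlas antibody), 4 Neurod1 libraries, 3 IgG control libraries, and 1 library for each histone mark, all 3 of the latter from the same biological replicate. In mouse there were 8 Otx2 libraries (4 per antibody), 4 Neurod1 libraries, and 2 libraries each for IgG and for every histone mark. Biological replicates were pools of retinas from 2 individuals in 13LGS and 3 in mouse, and a reaction used 500000 or 385000 nuclei. The sources used here gave no mouse strain for CUT&RUN, and no retina carried a mutation or treatment by the labels.

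All libraries of a target and species were pooled into 1 peak list, so no replicate spread exists, read depth is unknown, and no test between species or classes was made. Intervals for shares are Wilson intervals and intervals for medians are order-statistic intervals, both at 95%. Both cover counting error over peaks only. The mouse H3K4me3 list matched its tissue label, with a peak within 500 bp of the TSS (transcription start site) of 8 of 8 retinal genes, among them *Rax*, *Six6*, and *Crx*, and of 0 of 8 genes of liver, muscle, pancreas, blood, and heart, such as *Alb*, *Myod1*, and *Ins2*.

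Otx2 is a homeodomain TF required for photoreceptor and bipolar cell specification, and it binds sites containing TAATCC, a sequence it shares with its relative Crx. Neurod1 is a basic helix-loop-helix TF of photoreceptor precursors that binds E-boxes such as CAGATG. H3K4me3 marks active promoters, H3K27ac marks active promoters and enhancers, and H3K4me1 marks enhancers that are active or poised. A TF peak without any of these marks thus lies outside the elements that such marks are used to annotate.

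The genomic sequence beneath 3 mouse members with a high Otx2 fold is shown because these are clear cases of Otx2 signal without a called histone mark. Each run holds 300 bases of the plus strand of GRCm38 around the Otx2 summit, the position of highest signal, with TAATCC (or its reverse complement, GGATTA) and CAGATG (or CATCTG) in capitals, and the gene with the nearest protein-coding TSS in brackets.
chr11:6738432-6738731 (Ramp3): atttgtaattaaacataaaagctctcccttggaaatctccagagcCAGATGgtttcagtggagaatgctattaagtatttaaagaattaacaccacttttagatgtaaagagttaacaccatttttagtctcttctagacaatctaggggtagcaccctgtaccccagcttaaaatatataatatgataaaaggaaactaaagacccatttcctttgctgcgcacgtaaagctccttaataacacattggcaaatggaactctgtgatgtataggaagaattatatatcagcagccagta
chr9:58721184-58721483 (Rec114): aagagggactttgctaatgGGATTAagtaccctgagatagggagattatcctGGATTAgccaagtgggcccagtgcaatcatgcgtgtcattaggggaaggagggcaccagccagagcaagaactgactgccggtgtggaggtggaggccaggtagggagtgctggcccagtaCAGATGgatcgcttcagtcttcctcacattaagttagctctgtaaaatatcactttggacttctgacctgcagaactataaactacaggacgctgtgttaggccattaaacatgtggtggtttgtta
chr1:132090180-132090479 (Mfsd4a): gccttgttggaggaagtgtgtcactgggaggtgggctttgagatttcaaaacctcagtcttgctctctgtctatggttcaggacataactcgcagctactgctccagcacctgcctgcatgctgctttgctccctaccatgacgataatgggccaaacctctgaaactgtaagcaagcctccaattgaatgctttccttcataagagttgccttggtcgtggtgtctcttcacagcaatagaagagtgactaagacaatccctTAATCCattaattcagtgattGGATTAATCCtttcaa

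The member nearest to *Ramp3* had the highest fold of all (21.1) and no TAATCC in these 300 bases, although its whole peak of 1163 bp held 4. In *Rec114*, the nearer of the 2 motifs in the window lay 96 bp from the summit. The window near *Mfsd4a* held 3 motifs, of which 2 overlap each other, and 67.1% of it was soft-masked as repeat. In none of these windows did the motif lie at the summit itself.

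A second set is shown because these members lie nearest to genes of photoreceptor development and function and carry TAATCC within 50 bp of the summit, and a further member because it overlaps a Neurod1 peak and carries both motifs.
chr17:46904037-46904336 (Prph2): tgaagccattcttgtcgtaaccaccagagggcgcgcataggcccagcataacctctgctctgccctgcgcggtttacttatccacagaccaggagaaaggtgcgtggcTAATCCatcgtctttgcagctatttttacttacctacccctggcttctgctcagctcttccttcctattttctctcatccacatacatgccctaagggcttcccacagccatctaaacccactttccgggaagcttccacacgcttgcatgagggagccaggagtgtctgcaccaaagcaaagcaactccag
chr13:83656978-83657277 (Mef2c): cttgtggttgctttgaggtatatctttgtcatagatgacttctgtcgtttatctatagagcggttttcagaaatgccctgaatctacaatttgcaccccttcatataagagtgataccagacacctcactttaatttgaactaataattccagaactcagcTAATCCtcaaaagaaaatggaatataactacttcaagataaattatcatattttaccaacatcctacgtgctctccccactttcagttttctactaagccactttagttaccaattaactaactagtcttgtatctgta
chr14:48671458-48671757 (Otx2): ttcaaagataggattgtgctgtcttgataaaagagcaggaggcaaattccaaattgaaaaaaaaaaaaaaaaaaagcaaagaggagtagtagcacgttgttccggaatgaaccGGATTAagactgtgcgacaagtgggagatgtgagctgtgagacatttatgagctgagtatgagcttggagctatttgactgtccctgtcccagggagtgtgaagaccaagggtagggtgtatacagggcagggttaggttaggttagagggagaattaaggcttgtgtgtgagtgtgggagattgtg
chr4:125945353-125945652 (Csf3r): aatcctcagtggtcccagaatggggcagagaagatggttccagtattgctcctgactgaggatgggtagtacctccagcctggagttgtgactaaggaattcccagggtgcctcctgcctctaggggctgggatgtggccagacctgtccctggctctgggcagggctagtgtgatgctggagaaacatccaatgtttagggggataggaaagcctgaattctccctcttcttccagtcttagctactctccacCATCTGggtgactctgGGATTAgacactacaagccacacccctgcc

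The motif lay 40 bp from the summit near *Prph2*, 14 bp in *Mef2c*, 34 bp in *Otx2*, and 122 bp near *Csf3r*. The *Mef2c* and *Otx2* members lie in introns of those genes, whereas the other pair is intergenic. The Otx2 fold of these 4 members was 4.23, 3.10, 2.64, and 3.34, in the same order. No 13LGS sequence is shown, since the 13LGS genome was not used here.

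Members had lower Otx2 fold enrichment over IgG than peaks at histone marks. In 13LGS, the median fold of members was 2.76 (2.72 to 2.79), with quartiles of 2.40 and 3.21 and a range from 1.22 to 15.0. The 26030 Otx2 peaks at histone marks had a median of 3.19. In mouse, the median fold of members was 3.10 (3.05 to 3.13), with quartiles of 2.65 and 3.65 and a range from 1.38 to 21.1, against 3.60 for the 27019 peaks at histone marks. Otx2 peaks at H3K4me1 alone, the class associated with poised enhancers, were nearest to the members, with medians of 3.03 in 13LGS and 3.38 in mouse.

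**Figure D1:**
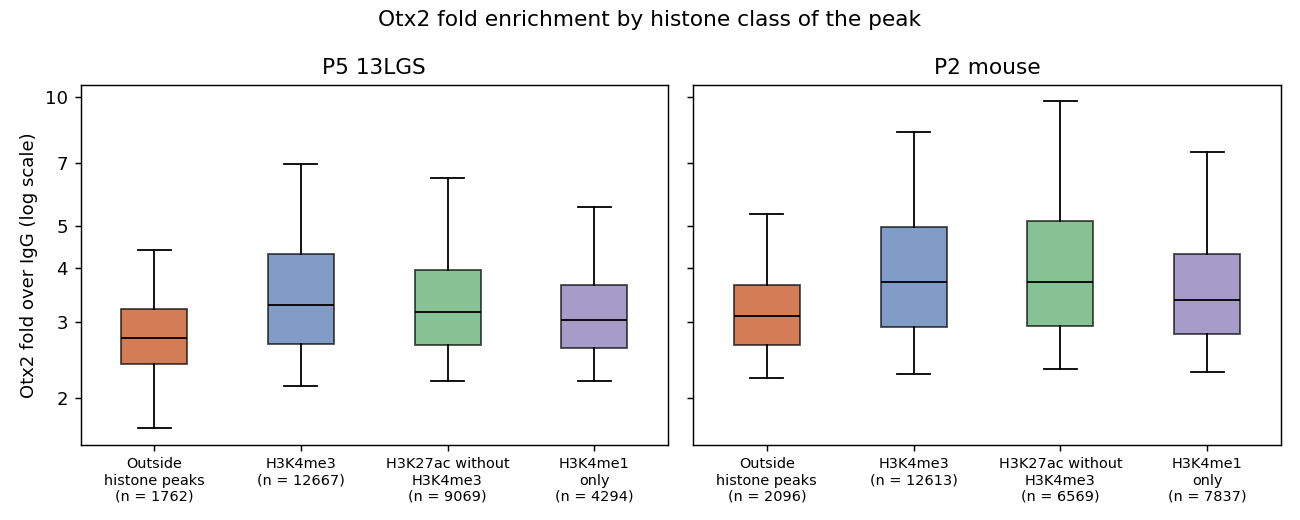
Otx2 fold over IgG (log scale) of peaks outside histone peaks, at H3K4me3, at H3K27ac without H3K4me3, and at H3K4me1 only, in P5 13LGS and P2 mouse. Boxes give the quartiles and median and whiskers the 5th and 95th percentiles over peaks. The members have the lowest median of the 4 classes in both species, 2.76 and 3.10.

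The members were also narrower and less significant. Their median width was 239 bp in 13LGS and 336 bp in mouse, compared with 448 bp and 590 bp at histone marks. Their median −log10 q was 3.72 and 4.45, compared with 6.42 and 8.14. High-fold members were few but not absent. A fold of 5 or more was reached by 49 members in 13LGS (2.78%) and by 134 in mouse (6.39%), whereas 13.4% and 22.7% of the peaks at histone marks reached it.

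In 13LGS, the member with the highest fold (15.0, −log10 q of 93.1) lay at Itri3:25137-25476, near the start of its sequence and 30256 bp from the nearest histone peak, an H3K4me3 peak. It was followed by Itri6:181176745-181177023 with a fold of 10.4 at 21911 bp from an H3K4me1 peak, and by Itri9:56457965-56458877 with a fold of 10.1 at 9946 bp from one. The other 7 of the 10 members with the highest fold ranged from 6.76 to 8.40. The highest of these, at Itri17:33178532-33179057, lay 4400 bp from an H3K4me1 peak. Of these 10 members, 3 overlapped a Neurod1 peak.

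In mouse, the member nearest to *Ramp3*, which encodes a receptor activity-modifying protein, lay at chr11:6738039-6739201 in GRCm38, 80061 bp from that TSS and 19782 bp from the nearest H3K4me1 peak. Another member, with a fold of 14.0, lay in an intron of *Rec114*, a gene of meiotic recombination. Those near *Mfsd4a* (13.4) and in an intron of *Mst1r* with *Actl11* as the nearest protein-coding TSS (11.7) lay within 1 kb of an H3K4me1 peak, at 855 bp and 945 bp. High folds were thus found both next to marked chromatin and far from it.

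Of the 20 mouse members with the highest fold, 15 ranged from 8.16 to 10.9. Among the genes nearest to them were *Fbxo2*, *Nyap2*, *Fn1* (fibronectin), *Tpt1*, *Rbfox2* (a splicing factor), *Pafah2*, *Garem1*, *Orc4* (a subunit of the origin recognition complex), *9230104L09Rik*, *Mnd1*, *Oxa1l*, *Aga*, *Lrfn2*, and *Gm9747*. Of all 20, 12 were intergenic, 7 intronic, and 1, at *9230104L09Rik*, within 1 kb of a TSS. No gene of photoreceptor function was among them. Proximity is a position only, and no link between a peak and a gene was measured.

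The members covered a wide range of distances to the nearest histone peak. The median distance between edges was 5305.5 bp (4771 to 5735) in 13LGS and 4528.5 bp (4248 to 4906) in mouse. The nearest histone peak was H3K4me1 for 74.6% of members in 13LGS and 81.1% in mouse, H3K4me3 for 15.0% and 11.2%, and H3K27ac for 10.4% and 7.68%. The H3K4me1 lists are the longest, and the share of nearest peaks that their length alone would give was not tested. Measured mark by mark, the median distance of 13LGS members was 6586 bp to H3K4me1, 22321.5 bp to H3K27ac, and 40362.5 bp to H3K4me3. In mouse these medians were 5244.5 bp, 29189.5 bp, and 29811.5 bp. The nearest Otx2 peak at a histone mark was farther than the nearest mark, with medians of 26049 bp and 17468 bp.

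**Figure D2:**
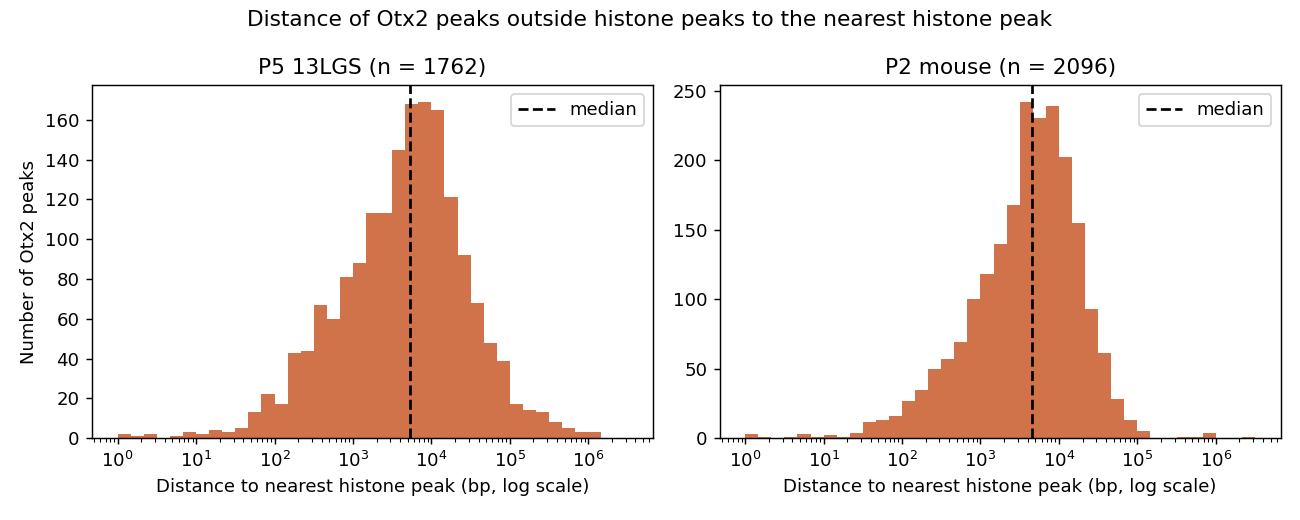
Number of Otx2 peaks outside histone peaks by the distance in bp between their edge and that of the nearest histone peak (log scale) in P5 13LGS and P2 mouse, with the median as a dashed line. Most members lie between 1 kb and 20 kb away. The 1 mouse peak on chromosome Y is drawn in the last step, and adjoining peaks in the first.

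Near the limit set by the rule, 58 members in 13LGS and 57 in mouse lay within 100 bp of a histone peak, with a median Otx2 fold of 2.68 and 2.81. Just on the other side of it, 39 and 43 Otx2 peaks shared at most 50 bp with a histone peak, with a median fold of 2.78 and 2.63. At the other end, 330 members in 13LGS (18.7%) and 232 in mouse (11.1%) were more than 20 kb from any histone peak. In 13LGS these distant members had a median fold of 2.54 (2.43 to 2.65), below the 2.72 to 2.84 of the nearer groups. In mouse their median was 3.19 (3.06 to 3.34), and 10.3% of them had a fold of at least 5.

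The farthest 13LGS members were on Itri1, Itri8, and Itri12, between 953784 bp and 1233897 bp from a histone peak, and the farthest of all (Itri1:1838759-1838926) had a fold of 3.36. In mouse, the farthest was on chromosome Y at 90804862-90805142, in an intron of *Gm47283*, 89518131 bp from the nearest histone peak with a fold of 1.70. The next 4 formed a run on chr17:39843368-39848745, 102219 bp to 107013 bp from the nearest protein-coding TSS, that of *Esp38*, and 100 bp to 494 bp from the TSSs of *Gm26917*, *AY036118*, and *CT010467.1*. They were between 725814 bp and 730641 bp from a histone peak.

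In 13LGS, a subset of members had a very low fold. A fold below 2 was seen in 164 of the 13LGS members (9.31%), compared with 1.67% of the 13LGS Otx2 peaks at histone marks, and in only 18 mouse members (0.859%), compared with 0.570%. The low-fold 13LGS members lay farther out, with a median distance of 28942 bp against 4698.5 bp for the others. Some were highly significant despite the low ratio, 10 of them reaching a −log10 q of 30. In addition, all 12 of the 13LGS members whose −log10 q reached 100 had a fold below 4, whereas 3 of the 4 such mouse members had a higher one.

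**Figure D3:**
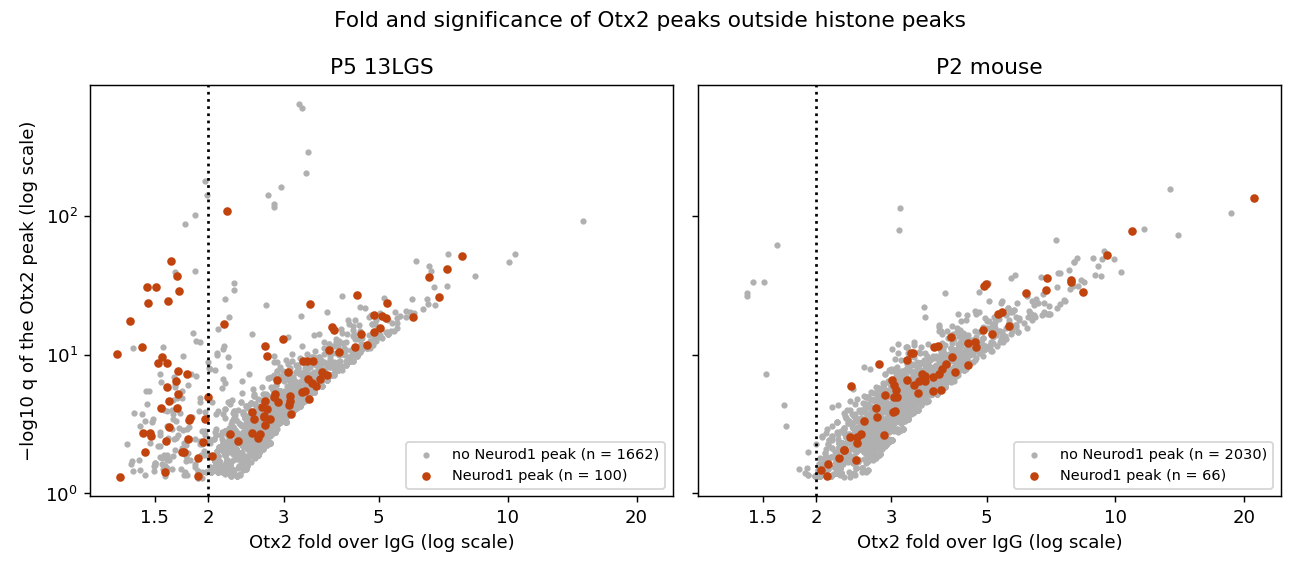
Otx2 fold over IgG against −log10 q (both log scales) for each Otx2 peak outside histone peaks, coloured by overlap with a Neurod1 peak, with a dotted line at a fold of 2. In 13LGS, 164 peaks lie left of the line, 38 of them with Neurod1, and in mouse 18 lie left of it, 0 of them with Neurod1.

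Some low-fold members lay in runs, as did members of higher fold, such as 5 on mouse chr12:8631781-8639120 with folds of 2.83 to 4.97. The run of Itri12:73894352-73911911 held 10 members with folds of 1.22 to 1.86 and −log10 q values of 9.72 to 101, and 8 of the 10 overlapped a Neurod1 peak with a Neurod1 fold of 1.27 to 1.83. A run of 6 members on Itri11:2046058-2063521 had folds of 1.56 to 2.10, and a run of 4 on Itri7:38428066-38444575 had folds of 1.29 to 1.75. In mouse, the run of 4 members on chromosome 17 at *Gm26917* and *AY036118* had folds of 1.38 to 1.62 and −log10 q values of 26.7 to 61.6, but with no Neurod1 peak. The mouse list had been cleared of regions on the ENCODE blacklist, a step that the methods describe for mouse only. Whether such regions hold the low-fold 13LGS members was not tested.

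The share of members with a Neurod1 peak was lower than that of all Otx2 peaks in both species. In 13LGS, 100 members (5.68%, 4.69 to 6.86) overlapped a Neurod1 peak, compared with 10.3% of all Otx2 peaks. In mouse, 66 members (3.15%, 2.48 to 3.99) did, compared with 13.1% of all. By class, the share was 18.6% in 13LGS and 25.03% in mouse at H3K27ac without H3K4me3, the active enhancer class. It was 7.89% and 11.9% at H3K4me1 alone, and 5.72% and 9.35% at H3K4me3. In mouse the members thus had the lowest share of the 4 classes, while in 13LGS their interval included the share at H3K4me3. With Otx2 peaks limited to a −log10 q of 5 or more, the share was 10.6% (8.33 to 13.5) of 555 members in 13LGS. It was 13.5% at all histone marks and 11.1% at H3K4me1 alone, and the latter lies inside the interval of the members. In mouse it was 5.38% (4.07 to 7.08) of 874 members, against 18.0% at all histone marks and 16.5% at H3K4me1 alone.

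Within the same steps of Otx2 fold, the mouse members were again below both enhancer classes. Overlap was counted over whole peaks, and the mouse members were narrower. Their median width was 336 bp, against 441 bp at H3K4me1 alone and 559 bp at H3K27ac without H3K4me3. The top step has no upper limit, and the highest folds were 21.1, 33.4, and 70.7 in the same order. The part of peak width in the Neurod1 shares was not tested. Among mouse peaks with an Otx2 fold of at least 5, 13 of 134 members (9.70%, 5.76 to 15.9) overlapped Neurod1, compared with 27.7% at H3K4me1 alone and 50.1% at H3K27ac. Below a fold of 3, the values were 1.93% (1.23 to 3.03), 6.41%, and 9.52%. The class at H3K4me3 was closest to the members, with 2.64% below a fold of 3, inside the interval of the members, and 21.5% at a fold of at least 5. In 13LGS, 9 of 49 members with a fold of at least 5 (18.4%, 9.98 to 31.4) overlapped Neurod1, with an interval that includes the 18.8% at H3K4me1 alone but not the 40.2% at H3K27ac. The 13LGS class at H3K4me3 had 13.2% there and 2.46% below a fold of 3, where the members had 5.50% (4.32 to 6.97). In mouse members the share was higher at each step of fold, from 1.93% to 2.93%, 5.19%, and 9.70%, with overlapping intervals between neighbouring steps. In 13LGS members it was 5.50%, 4.48%, 7.14%, and 18.4% over the same steps, and the first of these was 2.55% (25 of 982) without the members with a fold below 2.

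**Figure D4:**
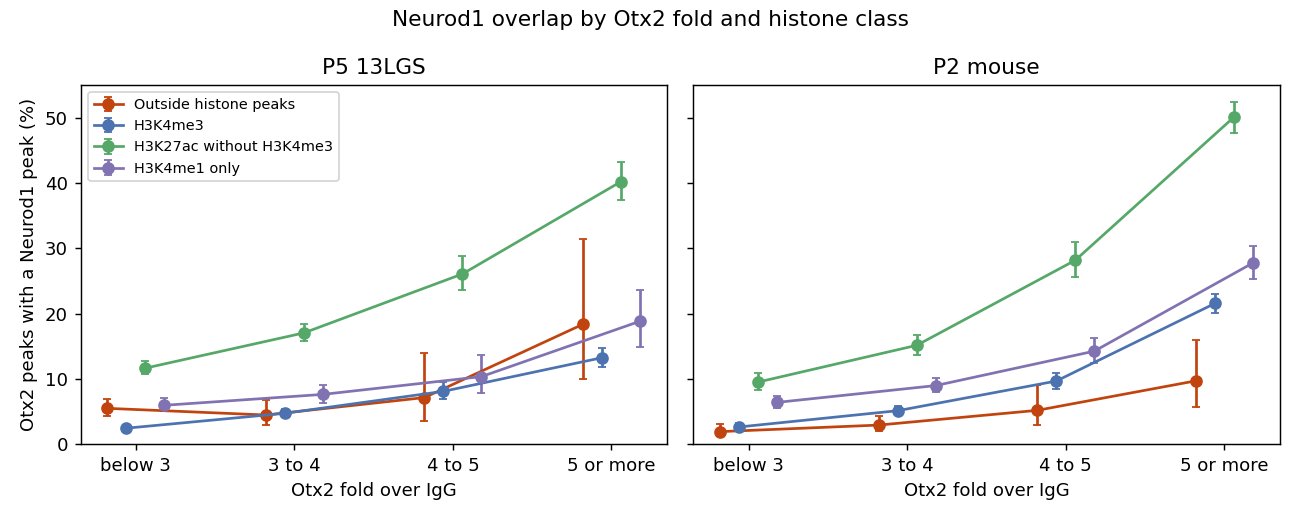
Share of Otx2 peaks that overlap a Neurod1 peak (%) by Otx2 fold over IgG, for the 4 histone classes in P5 13LGS and P2 mouse. Bars are 95% Wilson intervals over peaks. Mouse members run from 1.93% to 9.70% and are lowest at every fold, and 13LGS members start at 5.50%.

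The 13LGS value below a fold of 3 held many of the low-fold members just described. Of the 164 members with a fold below 2, 38 (23.2%, 17.4 to 30.2) overlapped a Neurod1 peak, and for 30 of the 38 the Neurod1 fold was below 2 as well. At histone marks, 5.53% of the 434 13LGS Otx2 peaks with a fold below 2 overlapped Neurod1. Without the low-fold members, 62 members (3.88%) overlapped Neurod1, compared with 3.18% of the mouse members with a fold of at least 2. Likewise, Neurod1 overlap was 9.39% (6.70 to 13.0) in 13LGS members more than 20 kb from a histone peak, and 3.78% (2.0 to 7.03) in those of them with a fold of at least 2. Read coverage of the IgG libraries was not used here, and its part in these values was not tested.

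The Neurod1 peaks at members had a median Neurod1 fold of 2.83 in 13LGS and 3.61 in mouse, compared with 3.51 and 3.78 over all Neurod1 peaks. Mouse members with Neurod1 had a higher median Otx2 fold (3.56) than those without (3.08). In 13LGS the medians were 2.68 and 2.76.

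The highest Neurod1 fold at a 13LGS member was 13.0, at Itri16:21661772-21662194, where the Otx2 fold was 3.52. The next, at Itri7:755513-755704, had a Neurod1 fold of 8.38 and an Otx2 fold of 2.90. The third, Itri11:6138573-6139195, was high for both, at 7.84 for Neurod1 and 7.82 for Otx2. In mouse, the highest Neurod1 fold of 15.9 was found at the intergenic member nearest to *Csf3r*, the receptor for granulocyte colony-stimulating factor, whose sequence with both motifs is given above. Others of the 10 were nearest to *Galr2*, *Col6a3*, *Sgca*, *Syngr1*, *Tef*, *Ramp3*, and *Scarb1*. Of these, the *Ramp3* member also had the highest Otx2 fold. At *Galr2* and *Scarb1*, the Neurod1 peak itself overlapped a histone peak. Such a Neurod1 peak was found at 2 of the 66 mouse members with Neurod1 and at 1 of the 100 in 13LGS.

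Few mouse members were at promoters, which follows largely from the rule. It removes every peak at H3K4me3, the class that held 10285 of the 11221 mouse Otx2 peaks within 1 kb of a protein-coding TSS. A protein-coding TSS lay within 1 kb of the summit for 123 of the 2096 members (5.87%, 4.94 to 6.96), compared with 38.5% of all mouse Otx2 peaks and 81.5% of those at H3K4me3. The shares at H3K27ac without H3K4me3 (3.58%) and at H3K4me1 alone (7.38%) were similar in size. Of all members, a further 5.77% lay in exons of protein-coding genes, 32.6% in introns, and 55.8% between genes. Peaks at H3K27ac without H3K4me3 had a higher share in introns (51.6%) and a lower share between genes (41.2%). The median distance of members to a protein-coding TSS was 17895.5 bp (16767 to 19032), compared with 5816 bp over all Otx2 peaks, 31791 bp at H3K27ac, and 30588 bp at H3K4me1 alone. Within 50 kb of such a TSS were 77.1% of members and 78.0% of all Otx2 peaks, compared with 61.8% and 60.9% of the peaks in both enhancer classes.

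The promoter-proximal members with the highest fold included those nearest to *9230104L09Rik* (8.87), *Slc38a11* (5.56), *Ttll9* (5.33), *C1qtnf6* (5.31), *Ccdc110* (4.70), *Catsperg1* (4.35), *Tex14* (4.202), *Hipk4* (4.199), and *Hoxa10* (4.199). *Catsperg1* encodes a subunit of a sperm ion channel and *Tex14* is required for germ cell bridges. *Hoxa10* is a homeobox gene of posterior body patterning, and its summit lay 473 bp from the TSS. The *Ttll9* summit lay 19 bp from its TSS and 10008 bp from any histone peak.

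The members were spread over many genes. They were nearest to 1843 genes, which is 8.44% of the 21842 protein-coding genes and 14.6% of the 12635 genes nearest to any Otx2 peak. Of these genes, 1630 were nearest to 1 member only, 29 to 3 or more, and 434 to members but to no Otx2 peak at a histone mark. *Tex14* was nearest to 6 members of its 7 Otx2 peaks. *Kif13b*, encoding a kinesin, was nearest to 5 of 16, and *Slc7a15*, a member of the amino acid transporter family, to 5 of 5. *Capn13* had 4 of 4, as did *Esp38*, whose 4 are the low-fold run on chromosome 17, 102219 bp to 107013 bp from its TSS. *Pcmtd1* had 4 of 6, and *Smad2*, a signal transducer of the TGF-beta pathway, 4 of 16. Many of these were neighbouring peaks, since 184 mouse members formed 83 runs in which the next member was less than 10 kb away.

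Among lists of retinal genes, the highest shares of genes with a member were those of photoreceptor TFs and rod genes. Over all protein-coding genes this share was 8.44%, and over genes nearest to any Otx2 peak 14.6%. Counted per Otx2 peak, the share was highest for rod genes (15.2%) and pigment epithelium genes (13.3%), and that of photoreceptor TFs was below the share over all genes. Of 21 photoreceptor TF genes, 8 (38.1%) were nearest to a member, but all 21 had an Otx2 peak, and 10 of the 193 Otx2 peaks nearest to them (5.18%) were members, compared with 7.2% over all genes. The 8 were *Otx2*, *Crx*, *Nr2e3*, *Rora*, *Mef2c*, *Mef2d*, *Esrrb*, and *Isl2*. The strongest was an intronic member of *Nr2e3*, a nuclear receptor that represses cone genes in rods, with a fold of 5.97 at 1299 bp from H3K4me1. It was followed by a member 2422 bp from the TSS of *Isl2*, a LIM homeodomain TF, with a fold of 4.89. The member in the intron of *Otx2* lay 615 bp from an H3K4me3 peak. The member 9590 bp from the TSS of *Crx*, the TF that drives photoreceptor gene expression, had a fold of only 2.23 and a −log10 q of 1.40, close to the threshold.

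Of 22 genes of rod phototransduction and the outer segment, 7 (31.8%) were nearest to a member, and 7 of their 46 Otx2 peaks (15.2%) were members. The fold was 5.71 near *Gucy2e*, a photoreceptor guanylate cyclase, with a summit 8916 bp from its TSS. It was 4.73 in an exon of *Gnat1*, the alpha subunit of rod transducin, at 834 bp from H3K4me1. Near *Prph2*, which encodes the disc rim protein peripherin, it was 4.23. The values were 3.68 in *Abca4*, 3.15 near *Gnb1*, 3.04 at *Guca1a*, and 2.49 at *Pde6g*, the inhibitory subunit of rod phosphodiesterase, where the summit lay 361 bp from the TSS and the peak 37 bp from H3K4me3. None of these 7 members overlapped a Neurod1 peak.

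Of 15 cone phototransduction genes, 3 (20%) were nearest to a member, among them *Cnga3*, the cone channel subunit, with a fold of 2.61, and *Rgs9*, with a fold of 2.99. These 3 were among 27 Otx2 peaks nearest to the list (11.1%). Of 18 photoreceptor synapse genes, 3 (16.7%) had a member, with folds of 2.65 at *Unc13b*, 2.76 at *Egflam*, and 3.10 at *Rimbp2*, among 71 Otx2 peaks (4.23%). None of the 19 bipolar cell genes did, although 15 of them were nearest to an Otx2 peak and these peaks numbered 58.

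Among genes of other cell types, 1 of 26 progenitor and proneural genes had a member, *Sox9*, at a distance of 605658 bp and with a fold of 3.14, while 233 Otx2 peaks were nearest to this list (0.429%). Of 25 genes of ganglion, amacrine, and horizontal cells, 2 had a member (*Tfap2a*, 3.88, and *Calb1*, 2.61), among 114 Otx2 peaks (1.75%). Of 14 Muller glia genes, 3 had members, 4 in all of 51 peaks (7.84%). A member within *Abhd2* whose nearest listed TSS was that of *Rlbp1*, encoding a retinaldehyde-binding protein, had a fold of 7.58. The other members were a second one at *Rlbp1* (2.17), 1 at *Dkk3* (3.25), and 1 at *Id3* (2.47). Of 14 pigment epithelium genes, 2 had a member among 15 peaks (13.3%), *Ttr*, encoding transthyretin, with a fold of 7.61, and *Tyrp1* with 2.99 at 316390 bp. The lists hold few genes, and no difference between them was tested.

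The Otx2-type motif had a higher share at mouse members than at mouse Otx2 peaks overall. TAATCC was searched on both strands within 150 bp of the summit and was found in 542 of the 2096 members (25.9%, 24.0 to 27.8), compared with 18.3% of all Otx2 peaks. In windows of the same length centred 1 kb to either side of members it was found in 13.4%. By class, the share was 28.7% at H3K4me1 alone, 22.1% at H3K27ac without H3K4me3, and 8.57% at H3K4me3, so the members lay between both enhancer classes. Searched over the whole peak instead, the motif was found in 25.8% of members and in 28.8% of the peaks at histone marks, which are wider. Median GC content was 49.3% in members, 49.5% at H3K4me1 alone, 49.8% at H3K27ac, and 61.5% at H3K4me3, the class with the lowest motif share. The part of base composition in the motif shares was not tested.

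The motif share was higher at higher Otx2 fold. It was 17.7% (15.4 to 20.3) in members with a fold below 3, 27.3% (24.3 to 30.4) from 3 to 4, 40.6% (34.2 to 47.3) from 4 to 5, and 50.7% (42.4 to 59.1) at a fold of at least 5. Over the same steps, the share went from 21.6% to 43.9% in the H3K4me1-only class and from 13.9% to 32.2% in the H3K27ac class. At a fold of at least 5, the interval of the members thus included the share at H3K4me1 alone but not that at H3K27ac. Members with the motif had a median fold of 3.36 (3.26 to 3.46), and those without it 3.01 (2.97 to 3.04).

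**Figure D5:**
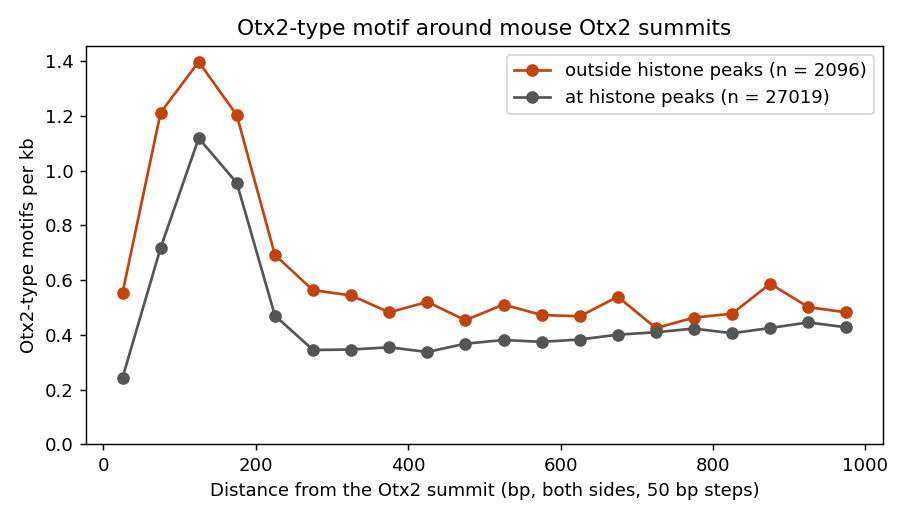
Occurrences of the Otx2-type motif per kb against distance from the Otx2 summit in bp, both sides together in 50 bp steps, for mouse Otx2 peaks outside and at histone peaks. Members peak at 1.40 per kb between 100 bp and 150 bp and have 0.553 per kb within 50 bp of the summit.

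The motif was offset from the summit in members too. Its density was 0.553 per kb within the first 50 bp, 1.21 from 50 bp to 100 bp, 1.40 from 100 bp to 150 bp, and 1.20 from 150 bp to 200 bp, and it was 0.425 to 0.587 per kb beyond 300 bp. At histone marks the densities over the first 4 steps were 0.243, 0.718, 1.118, and 0.955. By distance to a histone peak, the motif share was 37.1% (31.1 to 43.4) in mouse members more than 20 kb away and 23.9% to 25.9% in the nearer groups. The far group also had more members with a fold of at least 5 (10.3%, against 5.02% to 6.41%). Its median GC content was lower (47.3%, against 49.5% to 50.5%). The part of fold, GC content, and distance in this share was not tested.

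The E-box CAGATG was present within 150 bp of the summit in 25.3% of members (23.5 to 27.2), compared with 22.3% of all Otx2 peaks and 23.3% of the neighbouring windows of members. Its share was 32.2% at H3K27ac without H3K4me3 and 29.1% at H3K4me1 alone. AGGNGGC, the core of the site of the insulator protein CTCF, was present in 30.5% of members (28.6 to 32.5), compared with 31% of all Otx2 peaks and 17.7% of the neighbouring windows of members. By class, its share was 22.8% at H3K27ac without H3K4me3, 25.4% at H3K4me1 alone, and 38.8% at H3K4me3. The members were thus above both enhancer classes and below the H3K4me3 class. In members with a fold of at least 5, AGGNGGC was present in 17.2% (11.7 to 24.4). TAATCC was present in 13 of the 66 members with Neurod1 (19.7%, 11.9 to 30.8) and in 26.1% of those without. A match of these letters is a description and not evidence of binding.

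The share of repeats was higher beneath members than beneath marked peaks, although below the genome as a whole. The window of 150 bp on each side of the summit was mostly soft-masked in 116 members (5.53%, 4.63 to 6.60), compared with 1.39% at H3K27ac, 1.63% at H3K4me1 alone, and 0.499% at H3K4me3. The mean soft-masked share was 13.9% of bases in members and 8.29% at histone marks, against 35.3% over the chromosomes.

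The share of Otx2 peaks outside histone peaks differed between chromosomes. In 13LGS it was between 4.53% and 8.78% on 18 of the 19 sequences, and 16.9% on Itri19, where 41 of 242 Otx2 peaks were members. In mouse it was between 4.86% and 9.25% on the numbered chromosomes and 3.57% on chromosome X, and 1 of the 4 Otx2 peaks on chromosome Y was a member.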

How the data were processed

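Peak lists for 5 targets in P5 13LGS and P2 mouse retina were used, 10 in all. Per the study's methods, the authors trimmed reads with cutadapt 3.5 and Trim Galore 0.6.4, aligned them with Bowtie2 to GRCm38 or HiC_Itri_2, filtered them with SAMtools 1.12, removed duplicates, and merged technical replicates. Peak calling used macs2, with IgG as control and a q-value threshold of 0.05, on all libraries of a target together. The fold of each peak is a deposited ratio of the pooled signal over IgG that the authors obtained from macs2. The −log10 q-value of each peak was also deposited by the authors. Neither was rescaled. Depth is unknown, and no replicate could be left out.

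Overlaps of at least 1 bp and distances between edges were computed in Python 3.11.15 with numpy 2.4.6 and scipy 1.17.1. On simulated intervals, both gave 0 differences from bedtools 2.31.1. Plots were drawn with matplotlib 3.10.9. Mouse genes came from GENCODE release M21 and sequence from GRCm38. 13LGS genes and motifs were not analysed here. A summit within 1 kb of a protein-coding TSS was classed as promoter-proximal before exon, intron, and intergenic were assigned.

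The members, gene lists, and summaries were chosen with earlier results of these data known. Members named are the highest in Otx2 fold (20 in mouse, 10 in 13LGS), in Otx2 fold within 1 kb of a TSS (10 in mouse), and in Neurod1 fold (10 and 5), the 5 farthest from a histone peak, genes nearest to the most members, and every listed gene nearest to a member. Some items that this rule selects are not reported here. Runs and chromosomes were named after their values were seen. Alternatives were wider or stricter histone peaks, stricter Otx2 and Neurod1 peaks, summits, equal numbers of histone peaks, all 13LGS sequences, and other TSS and motif windows. A minimum Otx2 fold of 2 was added after seeing the data.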

Additional observations from a re-analysis of the deposited data

Results flagged for a closer look

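On 13LGS sequences other than Itri1 to Itri19, which the report leaves out, 105 of 201 Otx2 peaks overlapped no histone peak, a share of 52.2% (95% Wilson interval 45.4 to 59.0). This share was picked out only because it is above 0 in data that the comparisons do not use. On Itri1 to Itri19 the share was 6.34%. How many of the left-out sequences hold any histone peak was not counted. The 201 peaks lay on 94 sequences, the 105 had a median Otx2 fold of 2.10, and 27 of them (25.7%) overlapped a Neurod1 peak.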

How the results depend on the processing

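Of 64 values recomputed under other settings, 33 stayed within the 95% interval of the reported value and 31 moved out of it. Those that stayed include the mouse values with equal numbers of histone peaks. That setting cuts the list of each mark to the length of the shorter one of both species. It left all mouse values unchanged, so it gives no check of them. No replicate was left out, since each list pools its libraries. No paired analysis was possible because the results come from no test and the pooled lists carry no replicate numbers.

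The share of Otx2 peaks outside histone peaks moved in 13LGS and mouse to 5.49% and 6.38% with histone peaks widened by 500 bp, 7.61% and 9.04% with summits in place of peaks, 9.11% and 10.6% with histone peaks of −log10 q of at least 5, and 3.43% and 4.52% with Otx2 peaks of −log10 q of at least 5. In 13LGS it moved to 7.65% with equal numbers of histone peaks, a setting that did not alter the mouse values, and to 6.67% with all sequences. Median fold moved to 2.79 and 3.15 with stricter histone peaks and to 3.53 and 3.81 with stricter Otx2 peaks. Median distance moved to 6834 bp and 5453 bp with widened peaks, 3354 bp and 2909 bp with summits, and 6978 bp and 6253.5 bp with stricter histone peaks, and in mouse to 4918 bp with stricter Otx2 peaks. Neurod1 overlap moved to 10.6% and 5.38% with stricter Otx2 peaks and to 3.12% and 1.72% with stricter Neurod1 peaks. In mouse it moved to 4.79% with summits and 4.88% with stricter histone peaks.

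Mouse members within 1 kb of a TSS moved to 12.7% with all annotated genes, and 20.6% lay within 5 kb. TAATCC was found in 5.30% within 50 bp of the summit and in 33.9% of members with a −log10 q of at least 5. Anywhere in the peak it was found in 25.8% of members and in 28.8% of the wider peaks at histone marks. The excess of members over all marked peaks (25.9% against 17.7%) thus held for windows of fixed length only. Even there it did not hold against H3K4me1 alone (28.7%), and the share at H3K4me3 was 8.57%. With a fold of at least 2, chosen after seeing the data, the 13LGS values moved to 5.88%, a fold of 2.83, 4698.5 bp, and a Neurod1 overlap of 3.88%, and the 4 mouse values stayed within their intervals. The causes were not tested beyond what each setting changes by construction. Depth, being unknown, limits any statement that a histone mark is absent, and in 13LGS each mark rests on 1 library.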
